A study of Mus musculus with 46 samples.

Results

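The interferon-gamma induced GTPases described here are 10 genes chosen by name from the 54134 gene rows of a microglial RNA-seq count table. They comprise 5 guanylate-binding proteins (Gbp2, Gbp3, Gbp5, Gbp7 and Gbp9) and 5 immunity-related GTPases (Igtp, Irgm1, Irgm2, Iigp1 and Tgtp2). The rule for membership lists gene names and no expression value, but the genes were chosen with earlier results of these data known. The libraries came from microglia of wild-type mice (labelled WT, 22 libraries) and of 5xFAD mice (labelled AD, 24 libraries). The 5xFAD line is a model of Alzheimer's disease whose transgenes are driven by the neuronal Thy1 promoter. Mice of both sexes were fed 1 of 3 diets: zero fiber, control, or HAMSAB, a resistant maize starch that carries acetyl and butyryl groups. Each diet and genotype had 8 libraries, 4 labelled female and 4 male, except zero-fiber WT with 6 (4 female, 2 male). The sources used here state neither age, time on diet nor how the microglia were isolated. Whether every library is a separate mouse is not stated either, so p-values measure the spread between libraries, which may be technical.

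Both families are large GTP-hydrolysing proteins that cells make in quantity after interferon. Interferon-gamma binds the receptor chains Ifngr1 and Ifngr2, the kinases Jak1 and Jak2 pass the signal on, and gamma-activated sites (GAS) in target promoters respond to it. Interferon regulatory factors bind the interferon-stimulated response element (ISRE), through which type I interferons also act. Immunity-related GTPases of the Irgm group (Irgm1, Irgm2 and Igtp, also called Irgm3) sit on the cell's own membranes and hold the effector GTPases, such as Iigp1 and Tgtp2, inactive there. Effectors and guanylate-binding proteins coat the vacuoles of intracellular parasites and bacteria, and guanylate-binding proteins also promote inflammasome activation.

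Most members lie in groups on chromosomes 3 and 11, and Gbp9 and Iigp1 lie apart from the others. On GRCm38 (GENCODE M21), Gbp5 (chr3:142493978-142522344), Gbp7 (chr3:142530342-142550149), Gbp3 (chr3:142560026-142573209) and Gbp2 (chr3:142620602-142638008) lie in 1 stretch of the plus strand, with Gbp2b between Gbp3 and Gbp2, and Gbp9 (chr5:105077630-105139539) is on the minus strand of chromosome 5. Irgm1 (chr11:48861968-48871683, minus strand), Tgtp2 (chr11:49057194-49064206, minus strand), Igtp (chr11:58199556-58207591, plus strand) and Irgm2 (chr11:58199618-58222782, plus strand) are on chromosome 11. Igtp and Irgm2 share 162 exon bases on the same strand, 8.0% of the exon bases of Igtp and 4.4% of those of Irgm2, so reads from those bases cannot be assigned to 1 gene. Gbp7 shares 637 exon bases with Gm43802. Tgtp2 has a near-identical neighbour, Tgtp1, and its counts are uncertain for that reason.

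The promoters show what the members have in common besides their names. RefSeq promoters on GRCm38.p6 (250 bases before to 50 after the start site) were given for 8 of the 10 members, all but Gbp9 and Iigp1. They were searched on both strands for 2 motifs, an ISRE-type motif (GAAANNGAAA) and a GAS-type motif (TTCNNNGAA), and matches of one motif were allowed to overlap each other; in the members no match of one motif overlapped a match of the other. All 8 genes held at least 1 ISRE-type match, against 3.443% of all 32851 promoters of that length. A GAS-type match was found in 5 of them (Gbp5, Gbp7, Igtp, Irgm2 and Tgtp2), against 8.298% of all promoters, and these 5 held both motifs, against 0.454%. The 120 bases before the start site are printed because both motifs cluster there, with matches in capitals. Sequences read 5′ to 3′ on the gene's strand and end at the base before the RefSeq start site, which differs from the GENCODE start in several members. Where the ISRE-type match is on the other strand it appears as its reverse complement, and the longer runs of capitals in Gbp3 and Irgm1 are 2 overlapping matches each.
Gbp2, chr3:142620543-142620662, plus strand: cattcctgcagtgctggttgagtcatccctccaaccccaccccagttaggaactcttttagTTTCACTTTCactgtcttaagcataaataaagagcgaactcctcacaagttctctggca
Gbp3, chr3:142559924-142560043, plus strand: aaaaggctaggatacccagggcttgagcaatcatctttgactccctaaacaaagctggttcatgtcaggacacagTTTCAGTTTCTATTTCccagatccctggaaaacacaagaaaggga
Gbp5, chr3:142496814-142496933, plus strand: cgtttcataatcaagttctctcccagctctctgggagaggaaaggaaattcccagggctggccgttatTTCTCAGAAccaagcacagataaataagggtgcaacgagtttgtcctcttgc
Gbp7, chr3:142530216-142530335, plus strand: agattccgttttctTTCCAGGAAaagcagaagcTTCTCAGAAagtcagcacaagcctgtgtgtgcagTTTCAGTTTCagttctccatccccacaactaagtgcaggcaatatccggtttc
Igtp, chr11:58199436-58199555, plus strand: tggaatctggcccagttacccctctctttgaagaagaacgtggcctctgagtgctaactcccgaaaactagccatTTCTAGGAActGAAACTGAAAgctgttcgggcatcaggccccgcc
Irgm1, chr11:48871421-48871540, minus strand: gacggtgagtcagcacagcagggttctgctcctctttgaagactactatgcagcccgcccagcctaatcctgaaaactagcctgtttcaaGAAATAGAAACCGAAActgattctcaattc
Irgm2, chr11:58214857-58214976, plus strand: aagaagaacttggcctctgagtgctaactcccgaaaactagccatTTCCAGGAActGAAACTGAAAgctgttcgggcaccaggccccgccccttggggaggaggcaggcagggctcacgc
Tgtp2, chr11:49064213-49064332, minus strand: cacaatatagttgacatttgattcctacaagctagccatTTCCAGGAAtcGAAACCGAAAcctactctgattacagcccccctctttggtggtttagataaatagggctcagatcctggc

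In Igtp, Irgm2 and Tgtp2 the GAS-type match came first, and the first base of the ISRE-type match lay 11 bases after the first base of the GAS-type match. The windows of Igtp and Irgm2 share an unbroken run of 38 bases, and those of Irgm2 and Tgtp2 one of 17. In Gbp5 the ISRE-type match lay farther out, with its first base at position -165 from the start site, outside the printed window, and its GAS-type matches began at positions -245 and -52. Gbp2, Gbp3 and Irgm1 had no match to the GAS-type letters in the 300 bases searched. The second RefSeq start site of Gbp3 had no match to either motif.

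**Figure D1:**
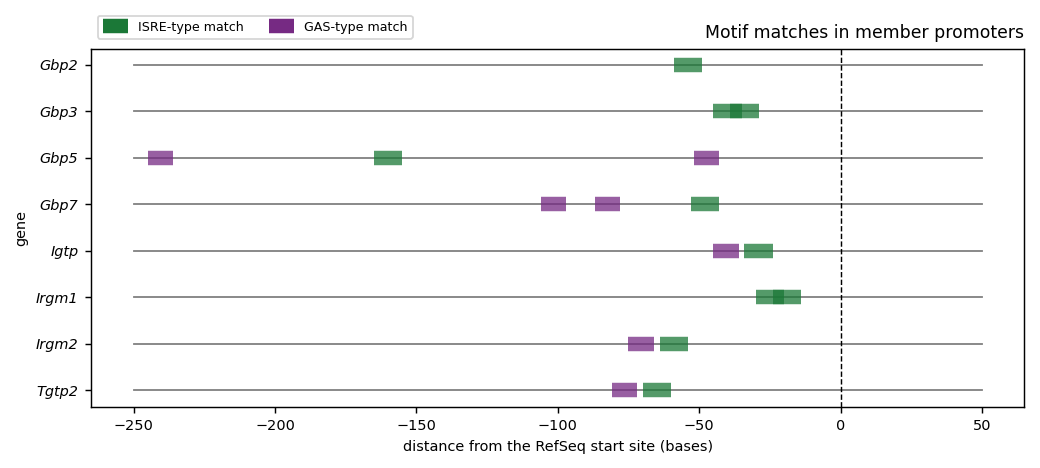
Motif matches in the RefSeq promoters of 8 members: the x axis is the distance in bases from the start site (dashed line), each row is a gene, green blocks are ISRE-type matches and purple blocks GAS-type matches. The GAS-type and ISRE-type matches of Igtp, Irgm2 and Tgtp2 lie side by side, and among ISRE-type matches that of Gbp5 is the farthest from its start site, at -165.

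Total counts ran from 52114 to 6950429 per library (median 2344837.5). The lowest total belonged to the zero-fiber AD male library numbered replicate 2, which held 11 reads of Gbp7, 3 of Igtp and 0 of Gbp2. The library labelled zero-fiber AD female replicate 1 had 1 read of Xist and 142 CPM of the Y-linked gene Ddx3y, against its label. The summed level of 8 microglial markers (P2ry12, Tmem119, Cx3cr1 and 5 others) was 22540 to 35370 CPM in every library. Among markers of other cells, 5 of the 8 T and NK cell genes (Cd3e, Cd3g, Cd8a, Trbc2 and Nkg7) had 1 to 3 reads in all 46 libraries, and Gzmb had 0. Transcripts of other cells were present. Over all libraries, summed astrocyte markers ran from 154.5 to 379.2 CPM, oligodendrocyte markers from 139.1 to 252 and endothelial markers from 15.45 to 125.1. Neuronal markers ran from 6.36 to 35.17 CPM, and monocyte and neutrophil markers from 0 to 26.19. In bulk samples, fewer cells of a type and less RNA per cell cannot be told apart.

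Levels are given first within the family. Per kilobase of exon, the order of mean levels over all 46 libraries was Igtp (33.5 ± 7.84 CPM per kb, SD), Gbp7 (32.6 ± 5.18), Irgm2 (19.1 ± 3.36), Irgm1 (8.88 ± 1.97), Gbp3 (6.52 ± 2.03), Gbp9 (3.52 ± 1.39), Gbp2 (3.12 ± 1.29), Gbp5 (1.62 ± 0.54), Iigp1 (0.597 ± 0.604) and Tgtp2 (0.211 ± 0.227). The neighbours Igtp and Gbp7, Gbp9 and Gbp2, and Iigp1 and Tgtp2 lay within 1 SD of each other. By this per-length level, the 3 regulators and Gbp7 ranked highest and the effectors Iigp1 and Tgtp2 lowest. The coefficient of variation of CPM (read counts scaled to each library's TMM-adjusted total) was 15.9% for Gbp7, 17.6% for Irgm2 and 22.1% for Irgm1, and 101% for Iigp1 and 107% for Tgtp2. Tgtp2 had 82 reads in all 46 libraries and did not pass the filter on low counts, and the other 9 members did.

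**Figure D2:**
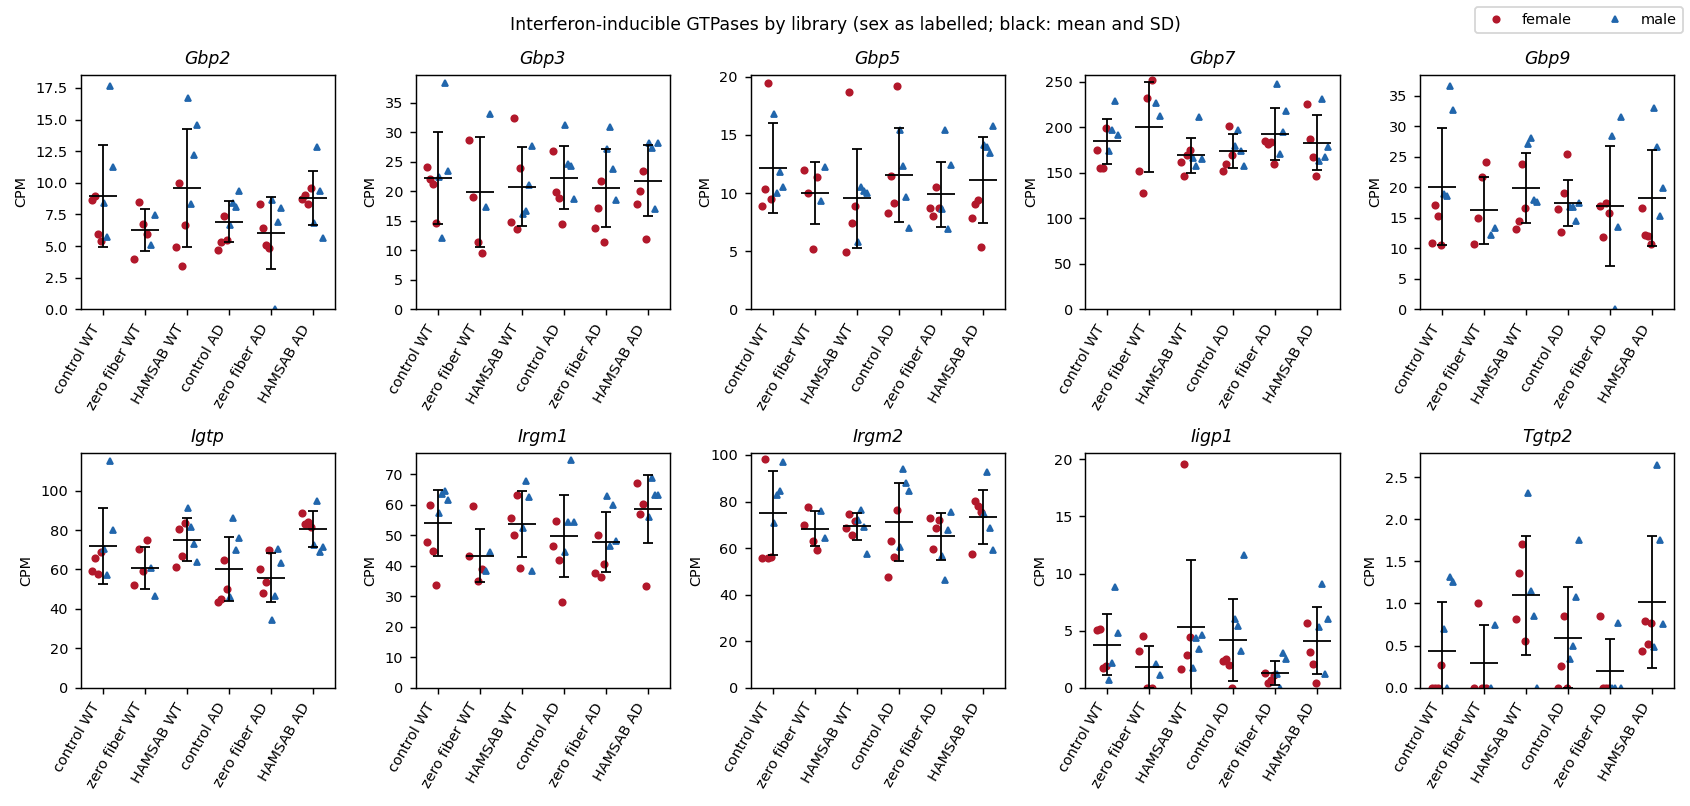
Level of each member in every library (y axis, CPM, from 0) by diet and genotype (x axis); red circles are libraries labelled female, blue triangles male, and black marks the mean and SD. Igtp sits higher in the 8 HAMSAB AD libraries (69.1 to 94.9 CPM) than in all but 2 of the zero-fiber AD libraries (34.5 to 70.2 CPM), while the ranges of Gbp7 and Irgm2 overlap throughout.

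Igtp, the Irgm3 regulator that sits on endoplasmic reticulum and lipid droplets, had the smallest p of the members across the diet and genotype groups. Its lowest, median and highest levels were 34.5, 57.1 and 70.2 CPM in zero-fiber AD and 69.1, 82.4 and 94.9 CPM in HAMSAB AD. In control AD they were 43.6, 57.4 and 86.3 CPM. In WT they were 46.4, 60.1 and 74.9 CPM on zero fiber, 57.0, 67.5 and 115.2 on control and 61.0, 76.9 and 91.1 on HAMSAB. All 8 HAMSAB AD libraries lay above the median of the zero-fiber AD libraries and above that of the control AD libraries, and 7 of the 8 lay above the highest zero-fiber AD library. In WT all 8 HAMSAB libraries lay above the zero-fiber median, and 5 of 8 above the control median. The groups overlapped in every pair, and no gap between neighbours in the order of the 6 group means, from 80.7 ± 9.05 CPM in HAMSAB AD to 55.8 ± 12.5 in zero-fiber AD (SD, n = 8 each), was larger than the larger of their SDs.

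Across the 6 diet-by-genotype groups, 1 of the 9 tested members was called, against a background of 4.36% of the 12121 genes tested. That member was Igtp (edgeR F test with 5 degrees of freedom, adjusted p = 0.0368). The next member was Iigp1 (adjusted p = 0.194), and the other 7 lay between 0.341 and 0.957. The call on Igtp held with DESeq2 (adjusted p = 0.0108) and with limma (0.0126). It was lost when any 1 of 10 libraries was left out, with adjusted p between 0.0533 and 0.075: HAMSAB AD male replicate 2 and female replicates 1 and 3, HAMSAB WT male replicates 1 and 2, control AD female replicates 1 and 2, zero-fiber AD female replicates 2 and 3, and zero-fiber WT male replicate 2. It held without any 1 of the other 36, and without the 2 doubted libraries together (zero-fiber AD female replicate 1 and male replicate 2).

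The comparison of HAMSAB with zero fiber asks how a fermentable fiber in the diet relates to microglial expression. In AD mice 7 of the 9 tested members had higher fitted levels on HAMSAB and 2 (Gbp7 and Gbp9) lower, and 0 were called, against 0.239% of all genes. The members' median log2 fold change was 0.21, beside 0.0041 over all genes. At unadjusted p below 0.05 there were 2 members (Igtp and Iigp1), against 10.6% of all genes, and DESeq2 and limma also called 0. The log2 fold change of Igtp was 0.49 ± 0.14 (SE; 1.4-fold, 95% interval 1.16 to 1.7; edgeR adjusted p = 0.119), and without those 2 libraries 0.5 (edgeR adjusted p = 0.16). In WT mice 6 of 9 were higher and 0 called, against 2.19% of all genes, with a median of 0.34 beside 0.0046. DESeq2 and limma called 0 members there too. In WT, 4 members had unadjusted p below 0.05, against 12% of all genes: Iigp1, Igtp, Irgm1 and, in the other direction, Gbp7. For Igtp in WT the log2 fold change was 0.36 ± 0.15 (SE; edgeR adjusted p = 0.267).

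Within each series of library numbers (titles below 2900 or at 2900 and above, which the labels do not call batches), Igtp kept its direction. In AD its mean log2 CPM was higher on HAMSAB than on zero fiber by 0.55 in all libraries, by 0.61 in the lower series (5 and 4 libraries) and by 0.52 in the higher (2 and 4). In WT the differences were 0.31, 0.43 and 0.09, the last from 3 and 2 libraries. These plain means do not balance the sexes, and all HAMSAB AD libraries of the higher series are labelled female. The lower-series zero-fiber AD libraries include the 2 doubted libraries. Summed levels of gene lists used as markers of other cells also differed between HAMSAB and zero fiber, with overlapping ranges. The summed T and NK list, nearly all from the chemokine Ccl5 and the receptor Klrd1, was 19.2 to 42.9 CPM in HAMSAB AD and 11.8 to 30.9 in zero-fiber AD. Hemoglobin and heme synthesis genes summed to 1.7 to 157 and 21.6 to 423 CPM, and perivascular macrophage markers to 16.1 to 44.5 and 30.7 to 86.0 CPM. In WT the T and NK sum was 16.1 to 42.2 CPM on HAMSAB and 8.27 to 26.1 on zero fiber, and the hemoglobin and heme sum 8.88 to 140.4 and 65.6 to 684.3. The T and NK sum rests on Ccl5 and Klrd1, and whether it follows the number of T or NK cells was not tested. Over 45 libraries, Ccl5 ran with the members' mean log2 CPM (Pearson's r 0.566) and Klrd1 against it (-0.347). The part of these lists in the result was not tested.

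The other regulators had smaller fitted differences. Irgm1, which acts at the Golgi and at mitochondria and whose promoter holds 2 overlapping ISRE-type matches, had a lowest, median and highest level of 36.3, 47.3 and 62.9 CPM in zero-fiber AD and of 33.4, 61.8 and 68.6 CPM in HAMSAB AD. In WT it stood at 35.1, 40.96 and 59.6 CPM on zero fiber and at 38.3, 54.1 and 67.8 on HAMSAB. The ranges overlapped in both genotypes, although 7 of the 8 HAMSAB AD libraries lay above the zero-fiber AD median. The log2 fold change was 0.28 ± 0.14 in AD and 0.34 ± 0.16 in WT (SE; edgeR adjusted p = 0.485 and 0.355). Irgm2 stood at 46.4, 68.3 and 75.5 CPM in zero-fiber AD and 57.6, 75.2 and 92.8 CPM in HAMSAB AD. Its log2 fold change was 0.13 ± 0.12 in AD and 0.02 ± 0.13 in WT, and the 95% interval in WT ran from -0.24 to 0.28. Igtp and Irgm2 share exon bases and a 38-base promoter run, and the difference between their fold changes was not tested.

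The effectors were low, and lowest on zero fiber in both genotypes. Iigp1, which loads onto the vacuoles of Toxoplasma, had a lowest, median and highest level of 0, 1.16 and 3.07 CPM in zero-fiber AD and of 0.384, 4.25 and 9.08 CPM in HAMSAB AD, from 24 and 103 reads in all. In WT it stood at 0, 1.61 and 4.51 CPM on zero fiber (25 reads) and 1.64, 3.86 and 19.6 CPM on HAMSAB (111 reads). On the control diet the median was 2.89 CPM in AD and 3.44 in WT. The ranges overlapped, with 5 of 8 HAMSAB AD libraries and 2 of 8 HAMSAB WT libraries above the highest zero-fiber library of their genotype. The log2 fold change of HAMSAB against zero fiber was 1.42 ± 0.58 in AD and 1.51 ± 0.59 in WT (SE; edgeR adjusted p = 0.356 and 0.234). Without the library HAMSAB WT female replicate 2, which held 43 of the 111 reads, the WT value was 0.85, and the log2 fold changes of HAMSAB against control in WT and of AD against WT on HAMSAB changed sign, from 0.31 to -0.35 and from -0.33 to 0.32. With no filter on low counts Iigp1 was called in both genotypes (edgeR adjusted p = 0.0471 in AD and 0.0143 in WT), at log2 fold changes of 1.43 and 1.51.

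Tgtp2, the other effector, was at 0 reads in 6 of 8 zero-fiber AD and 4 of 6 zero-fiber WT libraries. It was at 0 in 0 of 8 HAMSAB AD libraries and in 1 of 8 HAMSAB WT libraries. In control mice it was at 0 in 2 of 8 AD and 4 of 8 WT libraries. The reads summed to 6 in zero-fiber AD and 26 in HAMSAB AD, of which 14 came from HAMSAB AD male replicate 2, and to 4 and 24 in WT. Counts of 0 reads also depend on depth. Zero-fiber AD holds the lowest and second-lowest total counts of all libraries (52114 and 783849), and HAMSAB AD male replicate 2 had 4989982. With so few reads, a difference was not detectable at this depth: with no filter on low counts the log2 fold change was 1.45 ± 0.75 in AD and 1.7 ± 0.79 in WT (SE; edgeR adjusted p = 0.757 and 0.551).

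Among the guanylate-binding proteins, Gbp2 was the one with the largest positive fitted difference. Its lowest, median and highest levels were 0, 6.69 and 8.63 CPM in zero-fiber AD and 5.64, 8.89 and 12.9 CPM in HAMSAB AD, and 3.99, 6.33 and 8.52 and 3.42, 9.18 and 16.7 CPM in WT. The 0 belongs to the library of lowest depth. The ranges overlapped, and the log2 fold change was 0.37 ± 0.23 in AD and 0.5 ± 0.25 in WT (SE; edgeR adjusted p = 0.592 and 0.432). Gbp7, the most abundant guanylate-binding protein transcript, ran the other way: it stood at 159.3, 184.4 and 247.8 CPM in zero-fiber AD and at 146.9, 172.6 and 231.1 in HAMSAB AD. In WT it stood at 127.3, 218.8 and 251.5 CPM on zero fiber and at 146.1, 166.1 and 211.3 on HAMSAB, where all 8 libraries lay below the zero-fiber median. The log2 fold change was -0.09 ± 0.11 in AD and -0.27 ± 0.12 in WT (SE; edgeR adjusted p = 0.838 and 0.328).

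For Gbp3, Gbp5 and Gbp9 the sign of the fitted difference was not stable in 1 genotype each: alternatives, left-out libraries included, turned that of Gbp3 in WT (7 of them), of Gbp5 in WT (2) and of Gbp9 in AD (2). For Gbp3 the log2 fold change was 0.16 ± 0.22 in AD and -0.04 ± 0.23 in WT (SE), and group means ran only from 19.8 CPM in zero-fiber WT to 22.3 in control AD. Gbp5, known for its link to the Nlrp3 inflammasome, had 0.21 ± 0.24 and -0.09 ± 0.24, with group means from 9.54 to 12.1 CPM. Gbp9 had -0.1 ± 0.21 and 0.38 ± 0.22, with group means from 16.2 to 20.1 CPM. None of these passed the edgeR test, with adjusted p from 0.542 to 1.

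**Figure D3:**
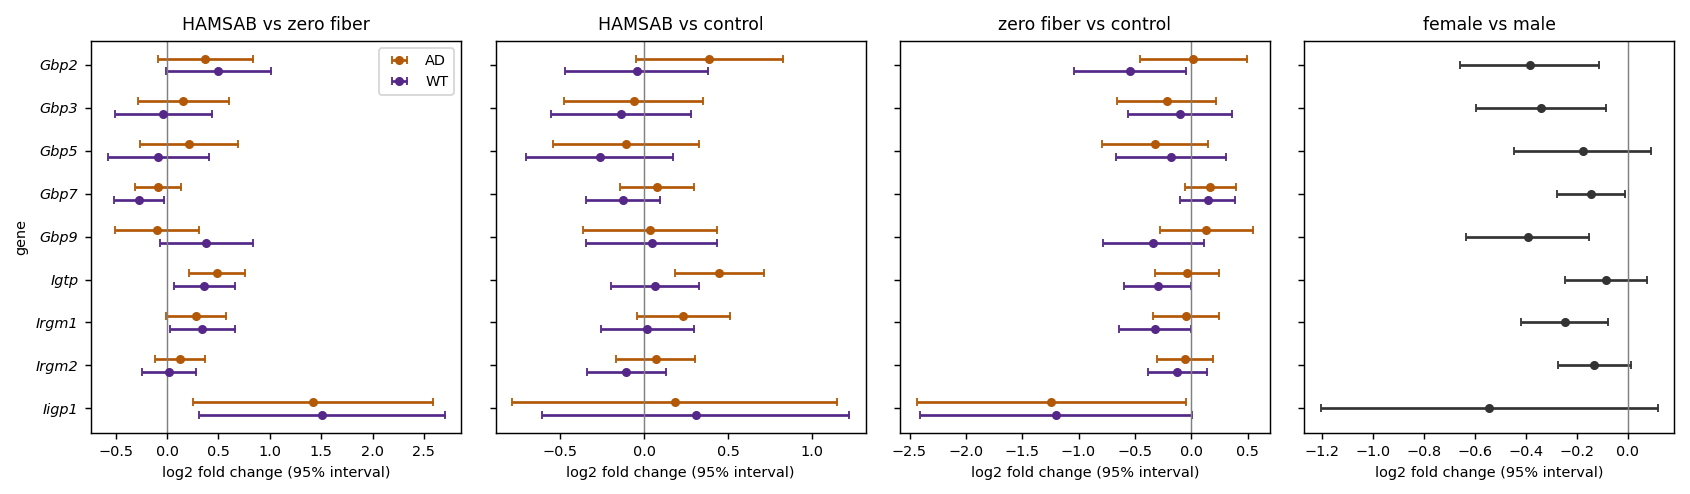
Log2 fold change (x axis) with its 95% interval for the 9 tested members (y axis) in the 3 diet comparisons, AD in orange and WT in purple, and for female against male over all groups; each panel has its own x scale. Igtp and Iigp1 lie to the right of 0 for HAMSAB against zero fiber in both genotypes, and all 9 members lie to the left of 0 for female against male.

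Against the control diet, HAMSAB AD mice had 7 of 9 members higher and 0 called, against 0.0743% of all genes, with a median log2 fold change of 0.08. In these AD groups 1 member (Igtp) had unadjusted p below 0.05, against 15.3% of all genes. At least 1 alternative turned the sign of Gbp3, Gbp5, Gbp9, Irgm2 and Iigp1 in this comparison. Perivascular macrophage markers differed between the same groups, at a sum of 16.1 to 44.5 CPM in HAMSAB AD and 19.8 to 153.8 in control AD, with 6 of 6 lower, 6 at unadjusted p below 0.05, 0 called by edgeR and a median log2 fold change of -1.37. The sum of the T and NK list, nearly all from Ccl5 and Klrd1, was 19.2 to 42.9 and 10.3 to 34.4 CPM. Their part in the result was not tested. Igtp again had the smallest p, with a log2 fold change of 0.45 ± 0.13 (SE; 1.36-fold, 95% interval 1.14 to 1.64; edgeR adjusted p = 0.0939). Leaving out control AD female replicate 3 gave a log2 fold change of 0.52 and an edgeR adjusted p of 0.0463, and the other 15 single libraries gave none below 0.05. In WT mice 4 of 9 were higher and 0 called, against 0.281%, and Igtp had 0.07 ± 0.13 (SE). At unadjusted p below 0.05 there were 0 members in WT, against 13.3% of all genes. In mean log2 CPM, Igtp in WT differed by 0.37 in the lower number series (5 and 1 libraries) and by -0.02 in the higher (3 and 7). The AD and WT differences of Igtp for HAMSAB against control differed by 0.38 ± 0.18 (SE; edgeR adjusted p = 0.889), and 0 members and 0% of genes were called for that interaction, with 1 member (Igtp) and 670 genes at unadjusted p below 0.05 and 0 called by DESeq2 and limma.

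Zero fiber against control gave 3 of 9 members higher in AD and 1 of 9 in WT, Gbp7 being the one higher in both. No member was called, against 0.0578% of all genes in AD and 0.00825% in WT. At unadjusted p below 0.05 there was 1 member in AD, against 10.8% of all genes, and there were 2 in WT, against 7.58%. The members' medians were -0.05 and -0.3. Iigp1 had the largest difference in both, with log2 fold changes of -1.24 ± 0.59 and -1.2 ± 0.6 (SE; edgeR adjusted p = 0.438 and 0.657). In WT, Gbp2 had -0.54 ± 0.25 and Irgm1 -0.32 ± 0.16 (SE). The WT groups differ in number series: zero fiber holds 4 libraries of the lower and 2 of the higher, control 1 and 7. In mean log2 CPM, the WT difference of Irgm1 was -0.06 in the lower series and -0.53 in the higher, and that of Igtp -0.06 and -0.1. With a number-series term in the edgeR fit, 0 members were called in WT. The 3 diet comparisons of a genotype share libraries, so their values are given side by side and not as separate support.

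Genotype was compared on each diet to ask whether the disease model changes these genes. The number of members called was 0 of 9 on zero fiber (0.00825% of all genes called), 0 of 9 on control (0%, with 655 genes at unadjusted p below 0.05 and 0 by DESeq2 and limma) and 0 of 9 on HAMSAB (1.68%). Of the members, 0, 1 (Igtp, control) and 0 had unadjusted p below 0.05 in edgeR, against 4.7%, 5.4% and 12% of all genes. On control all 9 were lower in AD, with a median log2 fold change of -0.11, but the sign turned for Gbp3 in 7 alternatives, for Gbp5 in 6 and for Irgm2 and Iigp1 in 1 each. Perivascular macrophage markers summed to 19.8 to 153.8 CPM in control AD and 18.99 to 57.5 in control WT (6 of 6 higher in AD, 5 at unadjusted p below 0.05, 0 called by edgeR, median 1.46), and their part was not tested. On HAMSAB 7 of 9 were higher in AD, with a median of 0.08. Igtp had log2 fold changes of -0.02 ± 0.15 on zero fiber, -0.28 ± 0.13 on control and 0.1 ± 0.13 on HAMSAB (SE; edgeR adjusted p = 1, 0.908 and 0.829). The control WT group holds 7 libraries of the higher number series and 1 of the lower, and the control AD group 4 of each. For HAMSAB against zero fiber, the difference between genotypes was called for 0 of 9 members, against 1.08% of all genes. For Igtp it was 0.12 ± 0.2, with a 95% interval from -0.28 to 0.53, which holds values of both signs. For zero fiber against control, 0 members and 0% of genes were called, with 748 genes and 0 members at unadjusted p below 0.05, and 0 genes by DESeq2 and limma.

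For sex, all 9 tested members had lower fitted levels in libraries labelled female, a sign that each kept in every alternative run, and 0 were called, against 0.124% of all genes. At unadjusted p below 0.05 there were 5 of 9 (Gbp9, Irgm1, Gbp2, Gbp3 and Gbp7), against 10.5% of all genes, and the median log2 fold change was -0.25 beside 0.0051 over all genes. Of all genes, 51.8% were higher in female libraries. The direction was not particular to the members. All 18 tested genes typical of type I interferon were lower too (8 at unadjusted p below 0.05, median -0.32). So were 6 of 6 other immunity-related GTPase genes and 7 of 7 constitutive GTPases, but 6 of 14 interferon-gamma targets. Gbp9 was 15.9 ± 4.41 CPM in the 24 female and 20.8 ± 8.73 CPM in the 22 male libraries (SD). Its log2 fold change was -0.39 ± 0.12 (SE; edgeR adjusted p = 0.192), and -0.4 without the 2 libraries of doubtful sex label or lowest depth (edgeR adjusted p = 0.158). With no filter on low counts it was called (edgeR adjusted p = 0.0403). Gbp2 was 6.77 ± 1.91 and 9.0 ± 3.99 CPM, and Irgm1 46.9 ± 10.8 and 56.7 ± 9.92 CPM (SD). Igtp differed least, at 65.6 ± 13.4 and 70.0 ± 18.2 CPM, with a log2 fold change of -0.09 ± 0.08 (SE). The female mean was the lower one in 6 of the 6 diet-by-genotype groups for Gbp7, in 5 for Gbp3 and Irgm1, in 4 for Gbp5, Gbp9, Irgm2, Iigp1 and Tgtp2, and in 3 for Gbp2 and Igtp.

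The members did not move as 1 block. Over 45 libraries (the library of lowest depth left out), Pearson's r of log2 CPM between the 36 pairs of tested members ran from -0.18 to 0.625, with a median of 0.228. It was above 0.5 in 4 pairs, Gbp3 with Iigp1 (0.625), Gbp2 with Igtp (0.542), Igtp with Irgm2 (0.519) and Irgm1 with Iigp1 (0.517), and below 0 in 7. The libraries share diet, sex and depth differences, and the exon bases that Igtp and Irgm2 share enter their r. These values are a description.

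The genes whose levels ran most like the mean of the members are interferon-induced genes. With the centred mean log2 CPM of the 9 members over the same 45 libraries, the 10 highest Pearson's r belonged to Slfn5 (0.805), Oasl2 (0.783), Ifit3 (0.773), Ifit1 (0.771), Rsad2 (0.768), Ifit2 (0.766), Slfn2 (0.762), Irf7 (0.747), Isg15 (0.744) and Gm12250 (0.728). With the means of the 12 diet-by-genotype-by-sex groups removed, r was 0.718 for Slfn5 and 0.781 for Oasl2. For the receptor chains Ifngr1 and Ifngr2 r was -0.05 and 0.176, and for the microglial marker P2ry12 -0.118. Interferon-gamma itself (Ifng) had 0 reads in every library.

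Upstream of the members, 0 of 11 tested genes of interferon-gamma signalling were called for HAMSAB against zero fiber in AD, with a median log2 fold change of 0.03. Ptpn11 had -0.27 ± 0.13 and Jak2 -0.24 ± 0.16 (SE). In WT 2 of 11 were called, both higher, against 2.19% of all genes. Ifngr1, the ligand-binding chain, rose from 1639 ± 230 to 2528 ± 467 CPM (SD, n = 6 and 8; log2 fold change 0.65 ± 0.17, SE; edgeR adjusted p = 0.0287). Ifngr2, the other chain, rose by 0.42 ± 0.12 (SE; edgeR adjusted p = 0.0469). The difference between genotypes was not called for either chain (Ifngr1 -0.63 ± 0.22, Ifngr2 -0.46 ± 0.16, SE; edgeR adjusted p = 0.219 and 0.188).

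Other targets of interferon gave some calls. For HAMSAB against zero fiber in AD, 14 of 14 tested interferon-gamma targets outside the family were higher and 2 were called, with a median of 0.29. Of all genes, 50.8% were higher there and 0.239% were called. B2m, the class I light chain, and Nlrc5, the transactivator of class I genes, rose by 0.59 ± 0.11 and 2.08 ± 0.48 (SE; edgeR adjusted p = 0.00417 and 0.0451). In WT 12 of 14 were higher and Nlrc5 alone was called (1.49 ± 0.41, SE; edgeR adjusted p = 0.0425). Of all genes, 50.8% were higher in WT and 2.19% were called. Of 18 tested genes typical of type I interferon, 18 were higher in AD with 0 called and a median of 0.78, and 17 in WT with 1 called (Rtp4, 0.96 ± 0.27, SE; edgeR adjusted p = 0.0457) and a median of 0.91. In AD, Rtp4 had 1.04 ± 0.25, Ifit3 1.27 ± 0.32 and Ifit3b 1.32 ± 0.35 (SE; edgeR adjusted p from 0.0503 to 0.0899). The members' medians of 0.21 and 0.34 were smaller than those of the type I list in both genotypes, and that difference between lists was not tested. Across the 6 groups, 5 of 14 interferon-gamma targets (Nlrc5, B2m and Tap1 with the smallest p) and 5 of 18 type I genes (Rtp4, Ifit3b and Ifit3) were called, beside 1 of 9 members. The share of all genes called across the 6 groups was 4.36%. These lists, like the members, were chosen with earlier results of these data known.

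**Figure D4:**
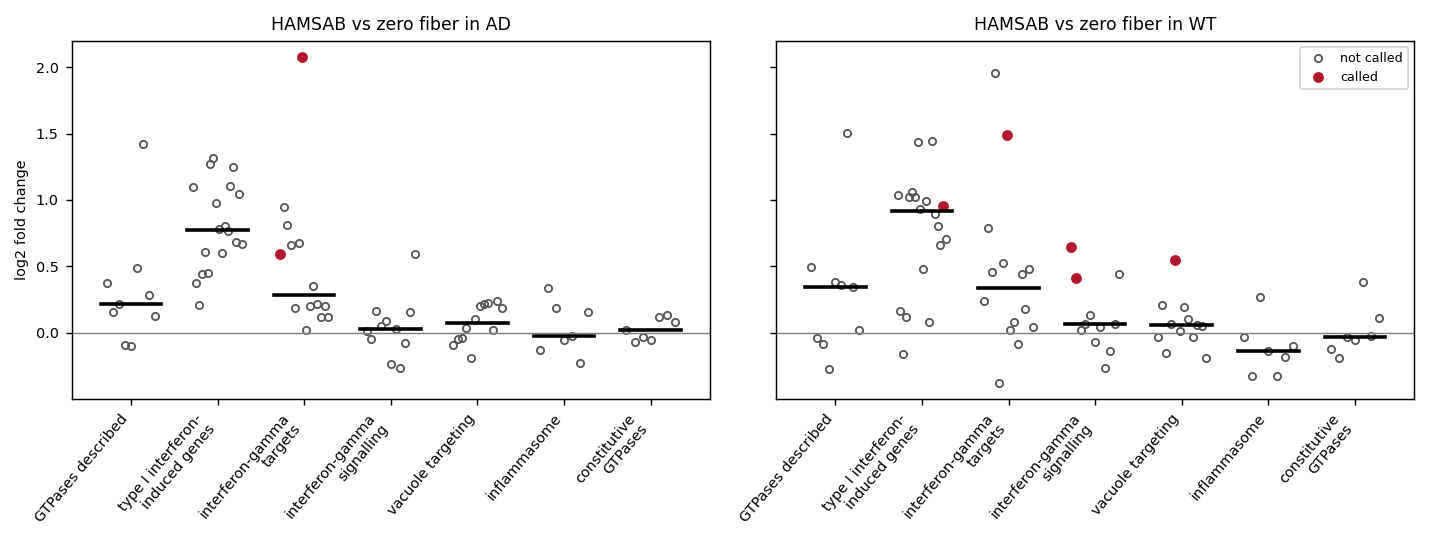
Log2 fold change (y axis) of HAMSAB against zero fiber in AD (left) and WT (right) for the tested genes of each list (x axis); open circles are genes not called, filled red circles called genes, and black bars the list's median. The bar of the GTPases lies at 0.21 in AD and 0.34 in WT, below that of the type I list (0.78 and 0.91) and above that of the constitutive GTPases (0.02 and -0.03).

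In the rest of the 2 families, the guanylate-binding protein genes were sparse, and some immunity-related GTPase genes were not. Mean levels were 56.8 CPM for 9930111J21Rik2, 14.5 for Gm12250, 14.4 for Irgq and 12.9 for Gm4951. Of 6 other guanylate-binding protein genes, Gbp4 alone passed the filter (log2 fold change of HAMSAB against zero fiber in AD 0.08 ± 0.6, SE), Gbp10 had 0 reads, and Gbp2b, Gbp6 and Gbp11 had 6, 13 and 5 in all libraries. Of 12 other immunity-related GTPase genes, 6 passed and 0 were called for HAMSAB against zero fiber in AD. Gm4951 and Gm12250 had 1.68 ± 0.4 and 0.7 ± 0.2 (SE; edgeR adjusted p = 0.0503 and 0.112). Irgq had -0.46 ± 0.19.

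Downstream partners and unrelated GTPases gave few calls. Of 12 genes that place GTPases on vacuoles (the Atg8 conjugation machinery, Sqstm1, Traf6 and Trim21), 0 were called for HAMSAB against zero fiber in AD (Map1lc3b 0.22 ± 0.11, Gabarapl2 0.22 ± 0.13 and Atg7 -0.19 ± 0.12, SE). Atg7, the E1-like enzyme of that machinery, rose in WT by 0.55 ± 0.13 (SE; edgeR adjusted p = 0.0196). On HAMSAB its log2 fold change of AD against WT was -0.63 ± 0.12, and the genotypes differed by -0.74 ± 0.18 in their HAMSAB against zero-fiber difference (SE; edgeR adjusted p = 0.00325 and 0.0272). Of 7 tested inflammasome genes, 0 were called in AD or WT (in AD, Casp1 0.34 ± 0.15, Nlrp3 -0.23 ± 0.16 and Pycard 0.16 ± 0.12, SE). Of 7 constitutive large GTPases of membrane fission and fusion, 0 were called in either genotype (in AD, Mfn2 0.13 ± 0.14, Opa1 0.08 ± 0.13 and Dnm2 -0.06 ± 0.09, SE), with medians of 0.02 and -0.03.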

How the data were processed

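The values are raw gene counts that the authors deposited, without normalization. The submitters' processing notes name STAR 2.5.2b, featureCounts 1.5.2 and GRCm38 (mm10); how strand and multi-mapping reads were handled is not given here. Counts were fitted with edgeR 4.0.16 (R 4.3.3, quasi-likelihood, TMM factors 0.918 to 1.25, filterByExpr leaving 12121 genes, 22686 having 0 reads throughout) on all 46 libraries with 12 group means; contrasts weighted the sexes equally. Genes were called at a Benjamini-Hochberg adjusted p below 0.05 over all tested genes. SE is the absolute log2 fold change divided by the square root of the test's F statistic, and the 95% intervals were built from it. The p-values are the test's own and can be larger than that SE implies. CPM are counts scaled to the TMM-adjusted library total. Alternatives were DESeq2 1.42.0 size factors and test, limma 3.58.1 voom, no filter, a number-series term, only the compared libraries, and left-out libraries. The members and gene lists were chosen with earlier results of these data known. All members are named; from each other list up to 3 called genes per comparison by p, or, with none called, the 3 smallest p for HAMSAB against zero fiber in AD. Exon lengths are from GENCODE M21. No pair of libraries held identical counts. Some results are not reported here.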

Additional observations from a re-analysis of the deposited data

Results flagged for a closer look

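In 7 of 60 sets (10 members in 6 diet-by-genotype groups) the highest or lowest library stood apart from the rest by Dixon's 95% criterion, which chance meets in about 5% of sets. Gbp2 was at 0 CPM in zero-fiber AD male replicate 2, the library of lowest depth, against 4.88 to 8.63 CPM in the other 7. Control WT male replicate 3 was highest for Gbp3 (38.3 CPM, others 12.1 to 24.1) and for Igtp (115.2 CPM, others 57.0 to 80.0). HAMSAB WT female replicate 2 was highest for Gbp5 (18.7 CPM, others 4.92 to 10.5) and for Iigp1 (19.6 CPM from 43 reads, others 1.64 to 4.6). HAMSAB WT male replicate 3 was highest for Gbp7 (211.3 CPM, others 146.1 to 175.4). HAMSAB AD female replicate 4 was lowest for Irgm1 (33.4 CPM, others 55.9 to 68.6).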

How the results depend on the processing

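Of 418 recomputed counts of called members, 402 stayed within 1.5 times the original. In the 13 comparisons with a direction the original count was 0, so there this means only that the count stayed at 0. With no filter on low counts, the count went from 0 to 2 (Igtp and Iigp1) for HAMSAB against zero fiber in AD, from 0 to 1 for HAMSAB against control in AD (Igtp), for HAMSAB against zero fiber in WT (Iigp1) and for female against male (Gbp9), and from 1 to 2 across the 6 groups (Igtp and Iigp1). There the SE of Iigp1 for HAMSAB against zero fiber in AD was 0.4 rather than 0.58, and 204 rather than 29 genes were called overall; the cause was not tested. With libraries left out singly, the count ranged from 0 to 1 for HAMSAB against control in AD and from 0 to 1 across the 6 groups. Of 3291 recomputed log2 fold changes of members, 6 became called, 0 reversed a call and 6 uncalled values changed sign by more than 1 SE. Igtp for HAMSAB against zero fiber in AD stayed between 0.39 and 0.59 with single libraries left out, at edgeR adjusted p from 0.0524 to 0.331. No paired analysis was possible because replicate numbers are in accession order and pair nothing. Iigp1 had 435 and Tgtp2 82 reads in all libraries, which limits both.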
